A study of Mus musculus with 24 samples.

Results

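The genes of major histocompatibility complex (MHC) class II antigen presentation were followed in bone marrow-derived macrophages (BMDMs, raised in L929-conditioned medium) and bone marrow-derived dendritic cells (BMDCs, raised with GM-CSF and IL-4). The 9 genes H2-Aa, H2-Ab1, H2-Eb1, Cd74, Ciita, H2-DMa, H2-DMb1, H2-Oa and Ctss were taken by symbol from a table of 54532 genes, and all 9 were found. The cells came from tamoxifen-treated Tmem173fl/fl mice, labelled WT, or from tamoxifen-treated Tmem173fl/fl Lyz2-Cre ert2 mice, labelled CRE. In the latter an inducible Cre driven by the myeloid Lyz2 gene is meant to remove Tmem173, the gene of STING, so both genotypes carry the floxed allele and the WT-labelled cells are not of a wild-type locus. Cultures were left untreated (control) or given DMXAA, which binds and activates the mouse form of STING, with 40 µM named in the labels. Cell type, genotype and treatment give 8 groups of 3 polyA RNA-seq libraries. The study's methods give the dose in µg/mL, so the concentration is uncertain, and the time of exposure of the sequenced cultures is not given in the sources used here.

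Class II molecules present peptides from endocytosed protein to CD4+ T cells. H2-Aa with H2-Ab1 encode the 2 chains of I-A, and H2-Eb1 encodes the beta chain of I-E. Only transcripts were measured, so H2-Eb1 values do not show that I-E molecules were formed. The paper states that its genetically modified mice had a C57BL background, and whether such cells form I-E was not tested. Where H2-Eb1 is called an I-E or antigen-binding chain below, only its transcript is meant. CD74, the invariant chain, escorts new class II molecules to endosomes, cathepsin S (Ctss) trims it to a small fragment, and the H2-DM dimer (H2-DMa with H2-DMb1 or H2-DMb2) exchanges that fragment for peptide, while the H2-O dimer (H2-Oa with H2-Ob) restrains H2-DM. CIITA, the product of Ciita, is the coactivator without which classical class II genes are hardly transcribed, and it acts through factors bound to X and Y boxes in their promoters. Dendritic cells express class II constitutively, whereas macrophages acquire it mainly after interferon gamma.

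The libraries held 15657347 to 18912887 counts. Tmem173 itself ranged from 9.91 to 31.9 FPKM (fragments scaled by gene length and sequencing depth) in WT-labelled and from 8.76 to 10.4 in CRE-labelled BMDMs, and from 28.8 to 55.3 against 19.7 to 36.9 in BMDCs, so its transcript was not lost and does not check the genotype labels. The 4 BMDM libraries numbered 3 stood apart. In them 6 of 6 leukocyte markers stayed under 1 FPKM, the 8 macrophage markers summed to 19.7 to 33.2 FPKM against 6011 to 13140 in the other 8 BMDM libraries, and the 8 fibroblast markers summed to 1151 to 1882 against 3.69 to 58.6. They go against their BMDM label and are given apart, so BMDM groups hold 2 libraries each. Within CRE-labelled BMDCs both libraries numbered 2 stood apart, with neutrophil markers summing to 265.5 and 485.4 FPKM against 12.3 to 27.3 in the other 10. No pair of libraries agreed within sampling noise, the closest having a chi-square of 3.53 per gene where 1 is the counting expectation. The closest BMDC pairs joined different labels, namely CRE number 1 with WT number 3 and CRE number 3 with WT number 2. Whether the genotype labels of these libraries are right was not tested. Nothing says that same-group libraries came from separate animals, so p-values measure only the spread between libraries.

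Promoter windows were searched for short letter cores of the X and Y boxes. RefSeq promoter windows (GRCm38.p6, 250 bases before to 50 bases after the start, written 5′ to 3′ on the gene's strand) were at hand for 6 of the 9 genes, namely H2-Aa, H2-Eb1, H2-DMa, H2-DMb1, H2-Oa and Ctss, and for the paralogs H2-DMb2 and H2-Ob. The motifs were chosen after the windows and the expression values had been seen and were searched on both strands. A Y box core, GATTGG, was found in 16.1% of all 32851 promoter windows, an X box core, AACNNATG, in 8.86%, and an interferon-stimulated response element, sought as 2 copies of GAAA with 2 free bases between them, in 3.44%. The motifs do not overlap in the 5 windows below, chosen to set 2 antigen-binding chain promoters beside those of both H2-DM beta chains and of Ctss. Capitals mark matches. The windows lie at chr17:34287774-34288073 on the minus strand (H2-Aa), chr17:34305617-34305916 (H2-Eb1), chr17:34152941-34153240 (H2-DMb1), chr17:34144999-34145298 (H2-DMb2) and chr3:95526536-95526835 (Ctss), the last 4 on the plus strand.
H2-Aa: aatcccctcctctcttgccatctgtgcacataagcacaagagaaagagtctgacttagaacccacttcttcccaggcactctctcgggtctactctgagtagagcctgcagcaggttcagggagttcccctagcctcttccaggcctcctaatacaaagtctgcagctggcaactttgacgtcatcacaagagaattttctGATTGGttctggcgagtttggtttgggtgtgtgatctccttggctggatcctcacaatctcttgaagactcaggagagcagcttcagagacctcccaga
H2-Eb1: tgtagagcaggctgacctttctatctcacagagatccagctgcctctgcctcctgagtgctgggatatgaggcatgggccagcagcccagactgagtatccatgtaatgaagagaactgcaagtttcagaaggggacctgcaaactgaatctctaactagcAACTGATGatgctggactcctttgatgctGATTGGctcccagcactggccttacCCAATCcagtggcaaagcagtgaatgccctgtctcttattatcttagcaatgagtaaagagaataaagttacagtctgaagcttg
H2-DMb1: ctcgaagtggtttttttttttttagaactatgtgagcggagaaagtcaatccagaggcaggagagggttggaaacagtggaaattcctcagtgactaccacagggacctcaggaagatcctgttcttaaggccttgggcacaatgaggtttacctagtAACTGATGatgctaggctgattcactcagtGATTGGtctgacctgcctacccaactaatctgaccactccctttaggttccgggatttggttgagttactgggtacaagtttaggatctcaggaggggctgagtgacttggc
H2-DMb2: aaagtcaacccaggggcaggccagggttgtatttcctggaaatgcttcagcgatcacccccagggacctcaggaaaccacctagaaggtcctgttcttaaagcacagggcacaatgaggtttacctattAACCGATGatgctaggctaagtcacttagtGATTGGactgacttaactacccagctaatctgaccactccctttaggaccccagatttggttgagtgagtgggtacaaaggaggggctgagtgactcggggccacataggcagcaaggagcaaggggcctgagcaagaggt
Ctss: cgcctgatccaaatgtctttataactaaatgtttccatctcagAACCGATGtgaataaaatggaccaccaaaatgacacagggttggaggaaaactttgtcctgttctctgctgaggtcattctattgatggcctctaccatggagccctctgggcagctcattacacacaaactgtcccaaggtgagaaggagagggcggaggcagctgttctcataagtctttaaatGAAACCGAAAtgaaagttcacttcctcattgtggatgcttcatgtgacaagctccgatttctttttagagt

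Counted from the start as base 1, with the base before it as -1, the Y box began at -49 in H2-Aa, -60 in H2-Eb1, -62 in H2-DMb1, -91 in H2-DMb2, -44 in H2-Oa and -58 in H2-Ob. H2-Eb1 held a second one on the opposite strand at -35. An X box core stood upstream of the Y box in H2-Eb1 (-89), H2-DMb1 (-92), H2-DMb2 (-121) and H2-Ob (-85). The H2-Aa and H2-Oa windows had no match to this core. A fixed core cannot show that an X box of other letters is absent. Ctss had the response element at -21, no Y box, and a lone X box match at -207. The H2-DMb1 and H2-DMb2 windows therefore held the same pair of boxes. These are letter matches and no evidence of binding. The 2 H2-DMa windows lie upstream of the start that the expression table gives for the gene and were not read further, and the H2-DMb2 window lies inside the gene as the table places it.

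Of the 9 genes, 6 lie within the MHC on chromosome 17 of GRCm38 as the files place them, from H2-Oa (34092340 to 34095234, plus strand) through H2-DMa (34135182 to 34139101, plus), H2-DMb1 (34153072 to 34160230, plus), H2-Ab1 (34263209 to 34269418, plus) and H2-Aa (34282744 to 34287827, minus) to H2-Eb1 (34305877 to 34316199, plus). Ctss lies on chromosome 3 (95526786 to 95556403, plus), Ciita on chromosome 16 (10480059 to 10528418, plus) and Cd74 on chromosome 18 (60803848 to 60812646, plus). Their identifiers are ENSMUSG00000024334 (H2-Oa), ENSMUSG00000037649 (H2-DMa), ENSMUSG00000079547 (H2-DMb1), ENSMUSG00000073421 (H2-Ab1), ENSMUSG00000036594 (H2-Aa), ENSMUSG00000060586 (H2-Eb1), ENSMUSG00000038642 (Ctss), ENSMUSG00000022504 (Ciita) and ENSMUSG00000024610 (Cd74). Values are for whole protein-coding genes. The library kit does not mark strand, so reads of Ciita and H2-Oa cannot be told from those of Dexi and BC051537, which overlap them on the opposite strand. H2-DMb1 and H2-DMb2 are paralogs, so reads they share may have been divided between them or lost.

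BMDCs held far more class II transcript than BMDMs. Among the 12 BMDC libraries Cd74 was the most abundant member, at 2335 to 6338 FPKM with a median of 3053, followed by Ctss (1761 to 3591, median 2304), which lay above Cd74 in both CRE-labelled libraries numbered 2. The antigen-binding chains came next, with medians of 293.5 for H2-Ab1, 251.7 for H2-Aa and 239.4 for H2-Eb1, whose ranges overlapped throughout. H2-DMa and H2-DMb1 had medians of 146.2 and 118.3. H2-Oa (3.09 to 8.91) and Ciita (0.856 to 8.63) were lowest and overlapped each other. FPKM is scaled by gene length, so this order compares genes.

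In the 8 BMDM libraries numbered 1 and 2 the order changed. Ctss led, at 2499 to 4384 FPKM, and Cd74 reached 28.1 to 74.2, while H2-DMb1 (17.8 to 31.8) and H2-DMa (11.6 to 22.1) lay above H2-Ab1 (4.40 to 16.5), H2-Aa (3.21 to 14.0) and H2-Eb1 (3.60 to 14.8). Thus the H2-DM chains exceeded the I-A and I-E chains in macrophages and lay below them in dendritic cells. The ratio of H2-DMa to H2-Aa FPKM was 1.37 to 3.62 in every one of these BMDM libraries and 0.266 to 0.773 in every BMDC library.

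**Figure D1:**
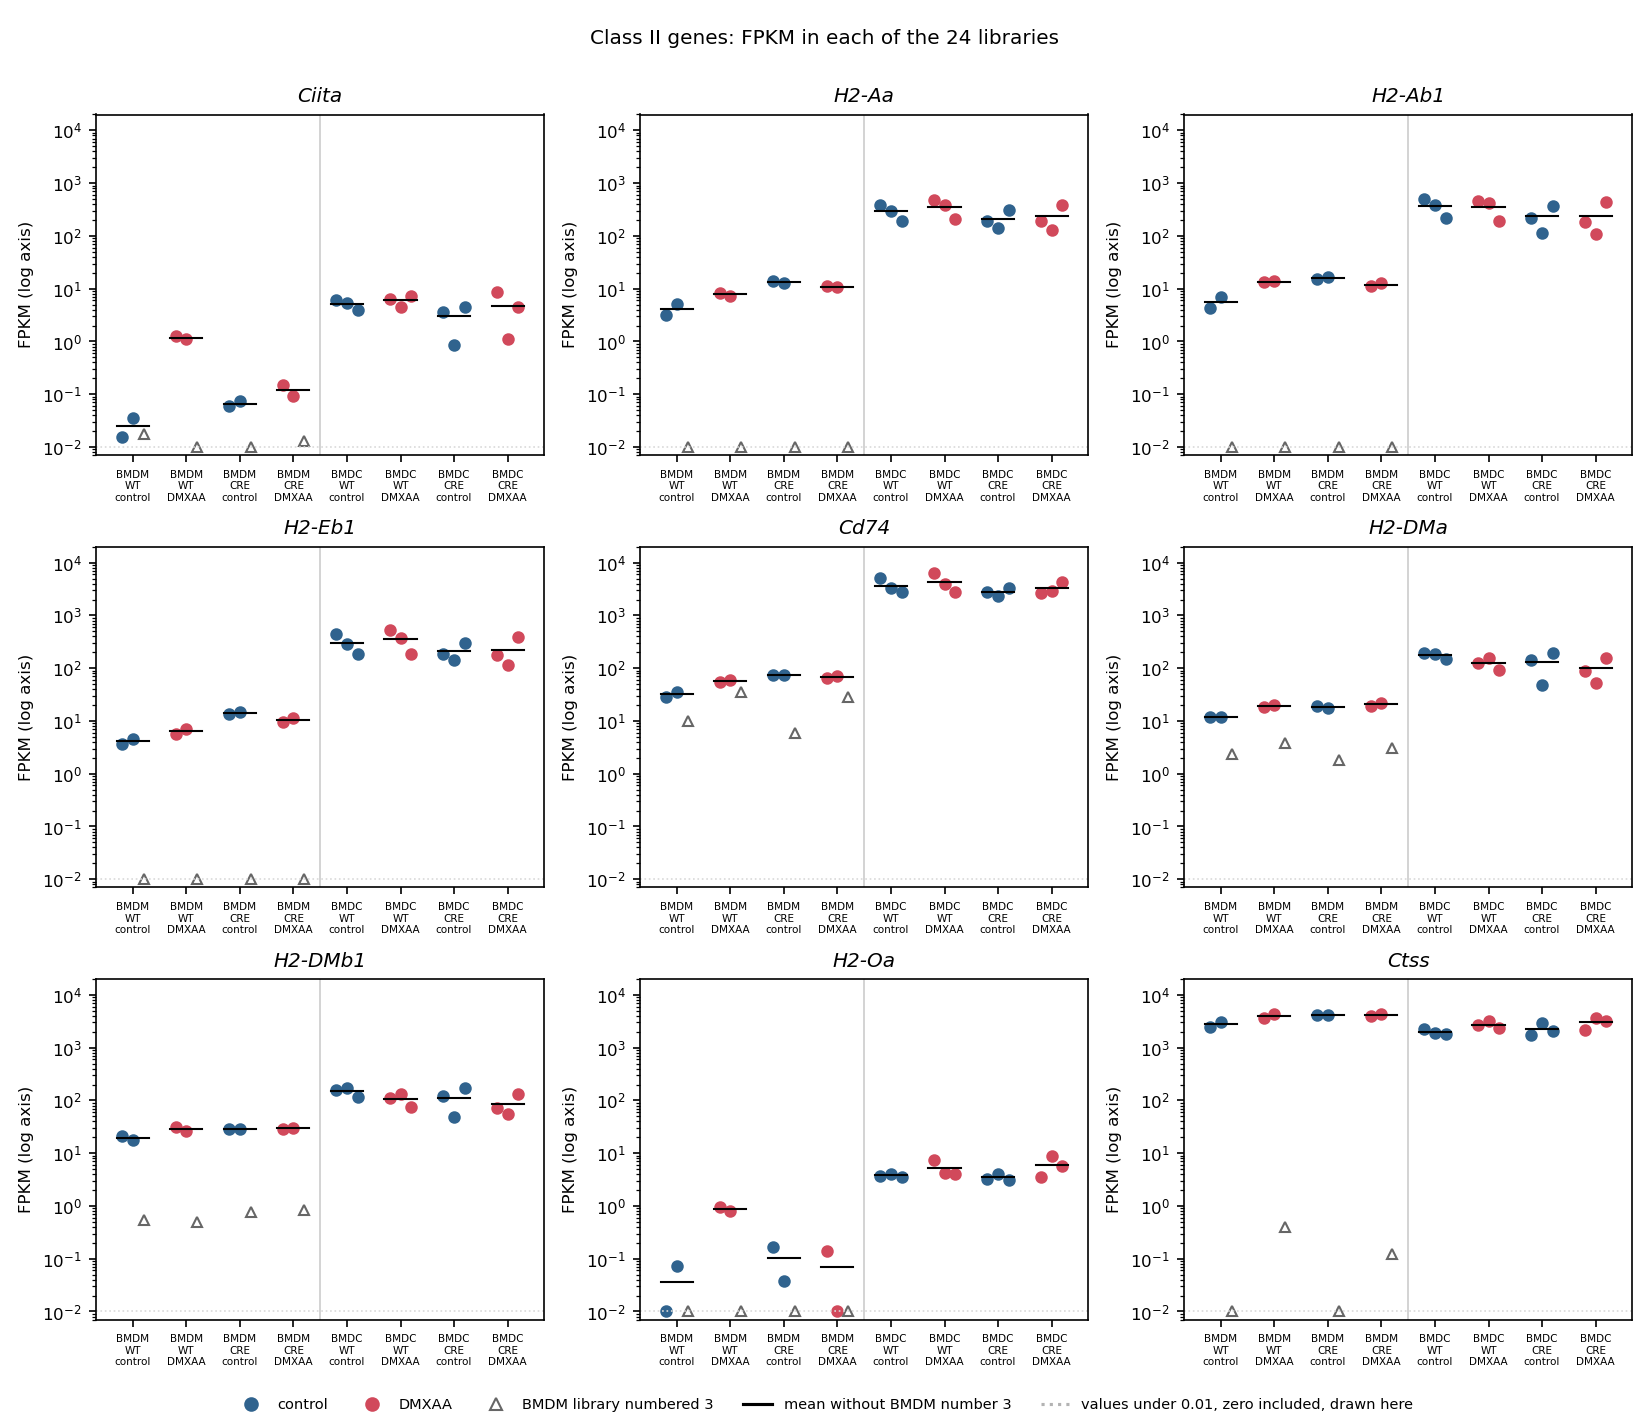
FPKM of the 9 class II genes in all 24 libraries on a log axis, 1 panel per gene, with groups along the horizontal axis, dots for libraries, triangles for the BMDM libraries numbered 3 and bars for group means without them. Values under 0.01, zero included, are drawn at 0.01. BMDC dots lie above BMDM dots in 7 of the 9 panels, the exceptions being Ctss and Ciita, and Ciita in WT-labelled BMDMs moves from 0.0154 and 0.0348 to 1.25 and 1.11 FPKM with DMXAA.

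Between WT-labelled control BMDCs (n = 3) and BMDMs (n = 2), 8 of the 9 genes were called higher in BMDCs at an adjusted p under 0.05 in edgeR, where 13.1% of 13368 tested genes were called higher and 28.5% either way. Cd74 was 3668 ± 1197 FPKM (SD) against 32.0 ± 5.50, a log2 difference of 6.78 ± 0.44 (SE, adjusted p = 4.45e-08). The I-A and I-E chains differed by 5.96 to 6.16 log2 units, H2-DMa by 3.83 ± 0.54 and H2-DMb1 by 2.88 ± 0.48. Ciita was 5.17 ± 1.18 against 0.0251 ± 0.0137 FPKM (log2 difference 7.58 ± 1.02). H2-Oa reached 1 FPKM in BMDC libraries alone, so it passed the filter only through the group where it was high. It rested on 2 counts over both macrophage libraries, and its ratio of depth-scaled counts was 102.4 (95% interval 28.1 to 849.8, counting error only). Ctss was not called (log2 difference -0.54 ± 0.24, adjusted p = 0.104). With DMXAA, 8 of 9 were again called higher, beside 15.3% of genes called higher and 30.6% either way, and the Ciita difference was then 2.41 ± 0.70. Fewer class II-positive cells and less RNA per cell cannot be told apart in bulk libraries. Markers of B cells, another source of class II, summed to 1.95 FPKM at most in the BMDC libraries and the BMDM libraries numbered 1 and 2. They summed to 2.48 to 3.28 FPKM in the BMDM libraries numbered 3. The part of B cells was not tested. With the libraries numbered 3 included, 4 genes were called in control and 2 with DMXAA, where 8.51% and 9.64% of genes were called.

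DMXAA raised 6 of the 8 class II genes tested in WT-labelled BMDMs. Ciita, the transactivator, stood at 0.0154 and 0.0348 FPKM (3 and 7 counts) in the control libraries and at 1.25 and 1.11 FPKM (135 and 153 counts) with DMXAA. The groups do not overlap. The log2 change was 5.40 ± 0.49 (SE, edgeR adjusted p = 0.000353), and the plain ratio of depth-scaled counts was 30.4 (95% exact conditional interval 16.3 to 64.0, counting error only). Ciita passed the filter of at least 1 FPKM in 2 libraries only through these 2 DMXAA libraries, so its inclusion among the tested genes rests on the group where it was high.

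H2-Ab1 stood at 4.40 and 6.92 FPKM in control and at 13.4 and 13.9 with DMXAA, a log2 change of 1.16 ± 0.23 (adjusted p = 0.00871). H2-Aa rose from 3.21 and 5.21 to 8.21 and 7.31 FPKM (0.77 ± 0.25, adjusted p = 0.046). With the replicate number as a block across genotypes in edgeR, H2-Aa lost this call (0.78 ± 0.25, adjusted p = 0.0509). H2-Eb1 was at 3.60 and 4.56 in control and 5.68 and 7.07 with DMXAA, which missed the threshold (0.53 ± 0.23, adjusted p = 0.113). The values of each of these genes separate by treatment, though the share of all genes that did so was not counted. H2-Ab1 had the largest estimate of the 3 chains. Per library, the ratio of H2-Eb1 to H2-Ab1 FPKM was 0.818 and 0.660 in control and 0.424 and 0.509 with DMXAA.

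The chaperone and loading genes were called higher as well. Cd74 went from 28.1 and 35.9 to 54.3 and 60.6 FPKM (0.73 ± 0.16, adjusted p = 0.0117), H2-DMa from 11.6 and 11.9 to 18.6 and 19.7 (0.59 ± 0.13, adjusted p = 0.0138) and H2-DMb1 from 20.7 and 17.8 to 31.8 and 26.4 (0.49 ± 0.14, adjusted p = 0.0289). Ctss was 2499 and 3121 against 3658 and 4378 FPKM (0.41 ± 0.17, adjusted p = 0.0961). H2-Oa, with 0 and 2 counts in control and 14 and 15 with DMXAA, was below the filter and not tested, and its ratio was 15.3 (95% interval 3.87 to 132.2).

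In all, 6 of the 8 tested members were called, each higher, beside 18.4% of 11569 genes called higher and 39.2% either way, and the median log2 change was 0.66 over the 8 and -0.08 over all genes. With the control and DMXAA libraries of each number kept together (replicate block within genotype), 8 of 8 were called, where 52.8% of genes were. That BMDM libraries of the same number are pairs was not shown. The count fell to 1 (Ciita) when the spread was taken from these 4 libraries alone, where 14.6% of genes were called, and to 0 of 7 when the libraries numbered 3 were added, where Ciita was no longer tested and 0.0% of genes were called in edgeR, with 1158 at an unadjusted p under 0.05 and 0 members among them. Dendritic cell markers summed to 46.0 and 46.9 FPKM in control and 30.5 to 47.2 with DMXAA, nearly all of it Itgax. Of the 7 markers, 5 stayed under 1 FPKM in both control libraries and 6 in both DMXAA libraries. The part of dendritic cells in the result was not tested. Fibroblast markers reached 47.2 and 58.6 FPKM in the 2 libraries numbered 2 against at most 6.55 in the 2 numbered 1, and their part in the result was not tested.

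**Figure D2:**
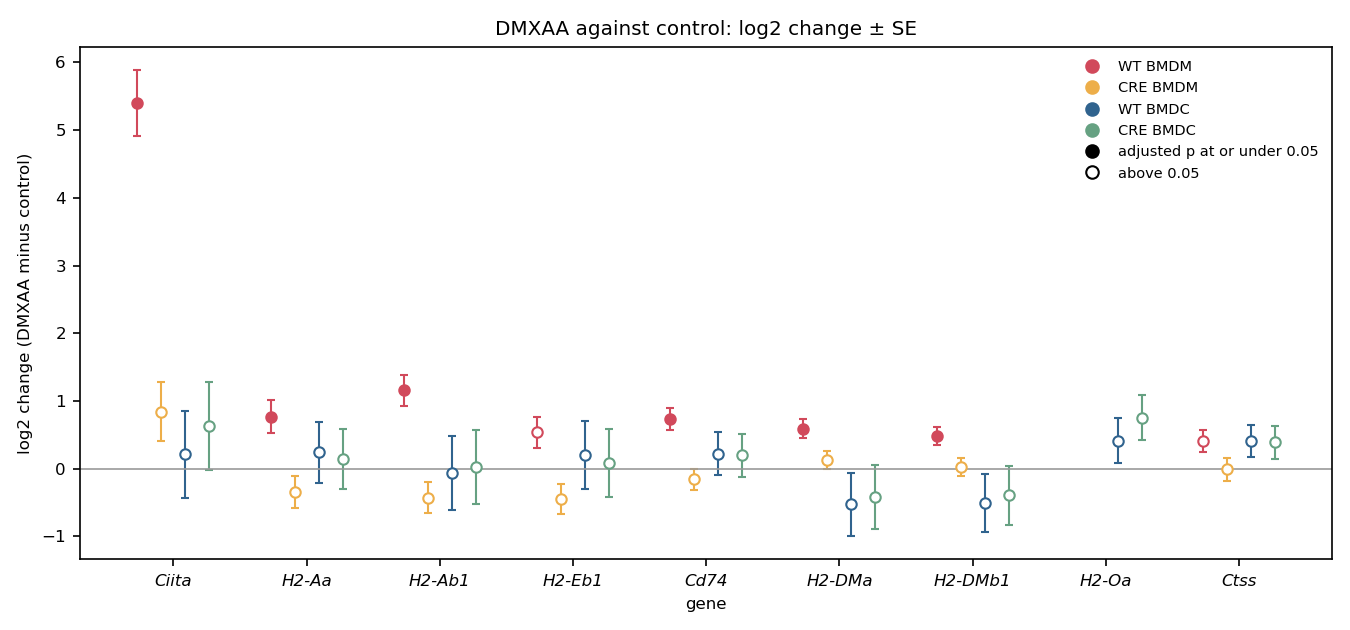
Log2 change with DMXAA (vertical axis, points with bars of ± SE) of each class II gene in WT and CRE BMDMs (2 libraries a group) and BMDCs (3 a group), filled where the adjusted p was at or under 0.05. The 6 filled points all belong to WT-labelled BMDMs, with Ciita at 5.40, and H2-Oa was tested in BMDCs alone.

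In CRE-labelled BMDMs, 0 of 8 members were called with DMXAA in edgeR, beside 10% of genes, and 0 had an unadjusted p under 0.05. DESeq2 also called 0. Ciita stood at 0.0586 and 0.0740 FPKM in control and 0.152 and 0.0910 with DMXAA (log2 change 0.84 ± 0.44, adjusted p = 0.271). H2-Ab1 was at 15.2 and 16.5 in control and 11.4 and 12.6 with DMXAA (-0.43 ± 0.23, adjusted p = 0.282), and Cd74 at 74.2 and 73.0 and then 64.3 and 70.0 (-0.16 ± 0.16, adjusted p = 0.57). The I-A and I-E chains and Cd74 were lower with DMXAA without overlap of the libraries. Ciita and H2-DMb1 (28.35 and 29.08 FPKM against 29.3 and 29.99) were higher without overlap. With 2 libraries a group values separate easily. The share of all genes that did so was not counted in any BMDM comparison. With the spread taken from these 4 closely matching libraries alone, Cd74, H2-Aa, H2-Ab1 and H2-Eb1 were called, with falls of 0.16 to 0.45 log2 units, where 55.2% of genes were called. With the libraries numbered 3 added, 0 of 7 members and 0.0% of genes were called, with 0 members and 269 genes at an unadjusted p under 0.05.

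The genotype by DMXAA term tests whether the 2 responses differ. It was called for Ciita (-4.56 ± 0.64, adjusted p = 0.0218), 1 of 8 members beside 3.66% of genes, and all 8 estimates were negative. Ciita was among the tested genes only through the WT-labelled DMXAA libraries, which are part of this term. H2-Ab1 followed at -1.58 ± 0.33 (adjusted p = 0.0522) and Cd74 at -0.89 ± 0.22 (adjusted p = 0.0888). With the replicate number as a block across genotypes 2 members were called, Ciita and H2-Ab1 (adjusted p = 0.0389), where 3.89% of genes were. With the replicate block within genotype 4 were called, Ciita, H2-Ab1, H2-Eb1 and Cd74, where 14.7% of genes were. For neither block was it shown that BMDM libraries of the same number belong together. The Ciita term lost its call when any of the 4 CRE-labelled libraries or WT DMXAA number 1 was left out (adjusted p from 0.0521 to 0.154), with the spread estimated from WT-labelled libraries alone (0.386) and in limma on log2(FPKM + 1) (0.0702) or log2(FPKM + 0.1) (0.184). With the libraries numbered 3 added, 0 members and 0.0% of genes were called, with 0 members and 44 genes at an unadjusted p under 0.05.

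All 8 tested members had higher estimates in CRE-labelled than in WT-labelled control BMDMs. H2-Eb1 was at 13.4 and 14.8 FPKM against 3.60 and 4.56 (log2 difference 1.74 ± 0.23, adjusted p = 0.156). Cd74 was at 74.2 and 73.0 against 28.1 and 35.9 (1.16 ± 0.16, adjusted p = 0.157). In edgeR 0 of 8 passed the adjusted threshold, beside 0.0432% of genes, while 8 of 8 had an unadjusted p under 0.05, as did 6.85% of all genes. DESeq2 called 5, namely Cd74, H2-Aa, H2-Ab1, H2-Eb1 and H2-DMa, where it called 1.09% of genes. Dendritic cell markers summed to 100.3 and 101.2 FPKM in the CRE-labelled control libraries, again nearly all Itgax, against 46.0 and 46.9 in the WT-labelled ones. Macrophage markers summed to 7493 and 7598 FPKM against 11450 and 13140, and neutrophil markers to 41.1 and 41.2 against 20.3 and 24.7. The part of these markers in the difference was not tested.

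Ciita was lower in CRE-labelled than in WT-labelled BMDMs with DMXAA. In control its estimate was higher in CRE-labelled BMDMs but not called (1.33 ± 0.49, edgeR adjusted p = 0.714). That estimate rested on 24 against 10 counts. With DMXAA WT-labelled BMDMs held 1.25 and 1.11 FPKM and CRE-labelled ones 0.152 and 0.0910, a log2 difference (CRE minus WT) of -3.23 ± 0.42 (edgeR adjusted p = 0.00456). The ratio of depth-scaled counts was 7.95 (95% interval 5.65 to 11.5) in favour of WT. Ciita was the 1 member of 8 called, beside 19.2% of genes, and it had passed the filter only through the WT-labelled libraries of this same contrast. Cd74, H2-Aa and H2-Eb1 remained higher in CRE-labelled libraries without overlap and without passing the test, as for H2-Eb1 at 9.61 and 11.4 against 5.68 and 7.07 (0.76 ± 0.23, adjusted p = 0.0608). The share of all genes that separated in this way was not counted. With the replicate block H2-Eb1 was called as well (0.77 ± 0.19, adjusted p = 0.0333), where 21.4% of genes were. H2-Ab1 lay the other way, at 11.4 and 12.6 against 13.4 and 13.9 (-0.14 ± 0.23, adjusted p = 0.706), and Ctss, H2-DMa and H2-DMb1 overlapped. The Ciita call was lost without CRE DMXAA number 2 (adjusted p = 0.058), with the spread estimated from WT-labelled libraries alone (0.0732) and in limma on log2(FPKM + 0.1) (0.0596). With the libraries numbered 3 added, 0 of 7 members, Ciita not among them, and 0.0% of genes were called in either the control or the DMXAA comparison of genotypes, with 36 and 418 genes at an unadjusted p under 0.05.

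**Figure D3:**
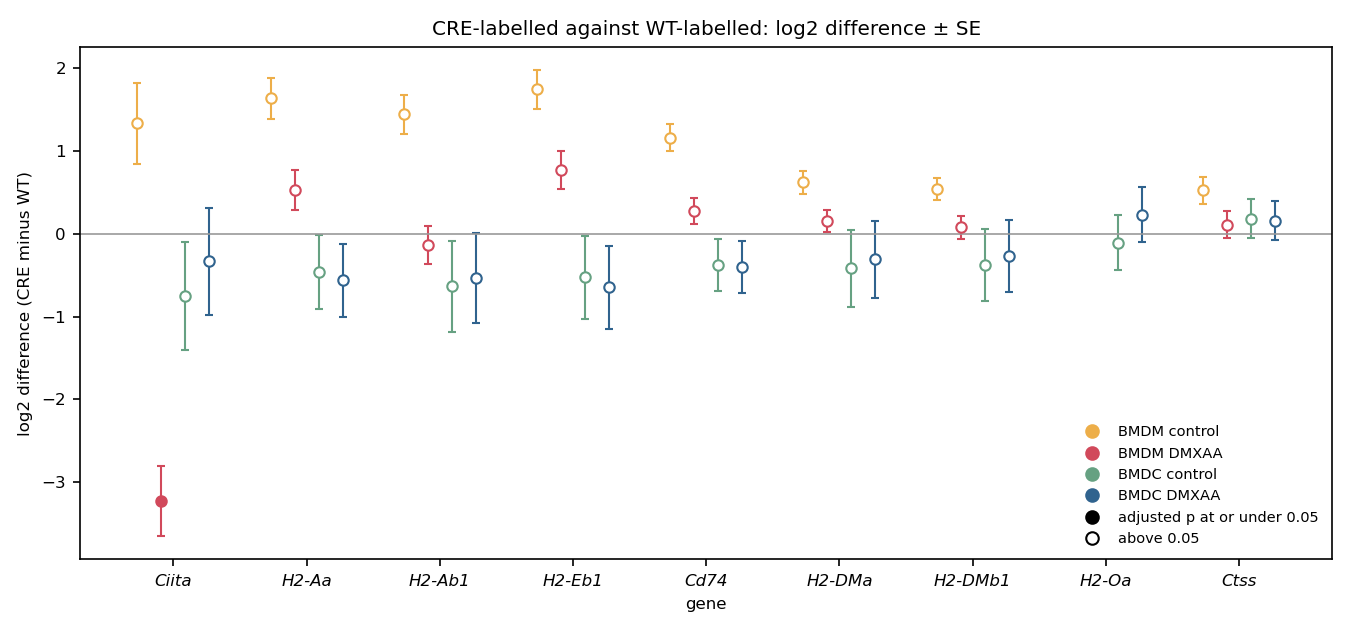
Log2 difference of CRE-labelled minus WT-labelled libraries (vertical axis, points with bars of ± SE) for each class II gene, in BMDMs and BMDCs with and without DMXAA, filled where the adjusted p was at or under 0.05. The control BMDM points of all 8 tested genes lie above 0 and unfilled, and the only filled point is Ciita in BMDMs with DMXAA at -3.23.

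In BMDCs DMXAA gave no called member without pairing of the libraries. With pairing 48.7% (WT) and 42.7% (CRE) of all genes were called. Among the members H2-DMa and H2-DMb1 were called lower in WT-labelled BMDCs, and Ctss higher in both genotypes. These counts do not exceed the shares of all genes and are read as no result about the class II set. With all 12 libraries and no block, 0 of 9 members were called in WT-labelled BMDCs, beside 32.2% of 12126 genes, and 0 in CRE-labelled ones, beside 25.4%. At an unadjusted p under 0.05 the counts were 0 and 1 (H2-Oa), and DESeq2 called 0 in both. The control and DMXAA libraries of 1 number deviated together in BMDCs (correlations of 0.417 to 0.692 within genotype), so the same-number comparison is given beside it. H2-DMa went from 192.0 to 125.0, from 185.7 to 155.1 and from 146.8 to 90.4 FPKM in WT-labelled BMDCs numbered 1 to 3. In the CRE-labelled ones it went from 145.5 to 89.7, from 48.0 to 53.5 and from 196.2 to 153.2. It was lower with DMXAA in 5 of 6 numbers, the exception being CRE number 2. Those libraries also held the neutrophil markers, whose part was not tested. The share of all genes that kept a direction as often was not counted, here or for the genes below.

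With the replicate block within genotype the H2-DMa change in WT-labelled BMDCs was -0.55 ± 0.16 (adjusted p = 0.0176) and that of H2-DMb1 -0.53 ± 0.17 (adjusted p = 0.0245). Ctss, the protease, was 1.17 to 1.65 times as high with DMXAA in each of the 6 numbers, and rose by 0.40 ± 0.13 (adjusted p = 0.0239). These 3 of 9 were called where 48.7% of genes were. In CRE-labelled BMDCs Ctss was the 1 member called (0.39 ± 0.13, adjusted p = 0.031) where 42.7% of genes were, and H2-DMa (-0.33 ± 0.16, adjusted p = 0.135) and H2-DMb1 (-0.31 ± 0.17, adjusted p = 0.162) were not.

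H2-DMb2, the second beta chain of H2-DM, and H2-Ob, the beta chain of H2-O, were called lower in the paired fit. That fit called 48.7% (WT) and 42.7% (CRE) of all genes, and neither gene was called without the block. H2-DMb2 went from 49.7 to 21.5, from 37.7 to 13.9 and from 25.4 to 8.37 FPKM in WT-labelled BMDCs and from 25.9 to 8.92, from 8.80 to 4.03 and from 37.9 to 15.6 in CRE-labelled ones, lower in 6 of 6 numbers. The blocked log2 changes were -1.44 ± 0.13 (adjusted p = 2.2e-05) and -1.35 ± 0.13 (adjusted p = 4.98e-05), whereas without the block neither passed (adjusted p = 0.0828 and 0.104). H2-Ob reached 1 FPKM in 5 control libraries and 1 DMXAA library, so it passed the filter of 3 libraries through the controls, where it was high. H2-Ob, at 1.62 to 1.97 FPKM in WT control, was at 0.576 to 0.736 with DMXAA (blocked -1.44 ± 0.26, adjusted p = 0.00137) and changed by -1.04 ± 0.28 in CRE-labelled BMDCs (adjusted p = 0.015). H2-Oa, its partner, was not called, with 3.53 to 4.07 FPKM in WT control and 4.04 to 7.33 with DMXAA (0.38 ± 0.26 with the block, adjusted p = 0.263).

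**Figure D4:**
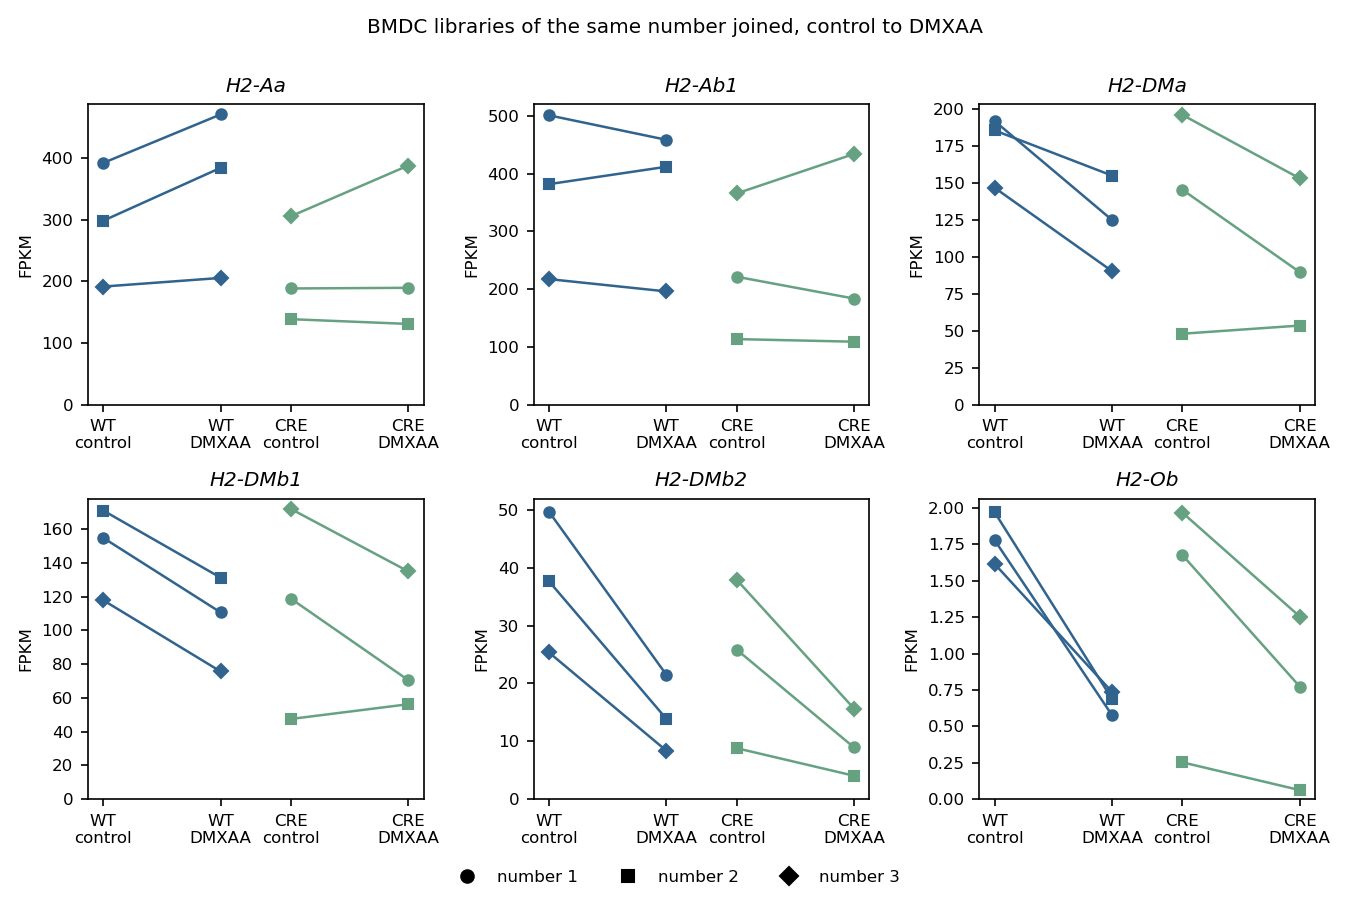
FPKM of 6 class II genes in BMDCs (vertical axis from 0), with control and DMXAA libraries of the same number joined by a line, WT-labelled on the left and CRE-labelled on the right of each panel. Lines for H2-DMb2 and H2-Ob fall in 6 of 6 numbers and those for H2-DMa and H2-DMb1 in 5 of 6, while those for H2-Aa rise or run level in 5 of 6 and those for H2-Ab1 run both ways.

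The antigen-binding chains, Cd74 and the transactivator were not called in either fit. H2-Ab1 stood at 500.9, 381.7 and 217.2 FPKM in WT control BMDCs and at 458.5, 411.8 and 195.9 with DMXAA (blocked log2 change -0.08 ± 0.12, adjusted p = 0.63). H2-Aa was at 391.8, 298.1 and 191.3 and then 470.4, 383.8 and 205.3 (0.22 ± 0.12, adjusted p = 0.155), and H2-Eb1 changed by 0.18 ± 0.13 (adjusted p = 0.319). Ciita was at 6.23, 5.37 and 3.90 and then 6.51, 4.47 and 7.24 (0.21 ± 0.25, adjusted p = 0.538), and Cd74 changed by 0.19 ± 0.11 (adjusted p = 0.191). The control and DMXAA groups of each of these genes overlapped. Relative to H2-Aa, H2-DMa FPKM was 0.490, 0.623 and 0.768 in WT control and 0.266, 0.404 and 0.440 with DMXAA, without overlap. In CRE-labelled BMDCs it was 0.773, 0.347 and 0.643 in control and 0.474, 0.409 and 0.395 with DMXAA, which overlap, with number 2 going the other way. The ratio of H2-DMb1 to H2-Ab1 overlapped in both genotypes. It was 0.31, 0.45 and 0.54 in WT control and 0.24, 0.32 and 0.39 with DMXAA. In CRE-labelled BMDCs it was 0.54, 0.42 and 0.47 and then 0.38, 0.52 and 0.31.

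**Figure D5:**
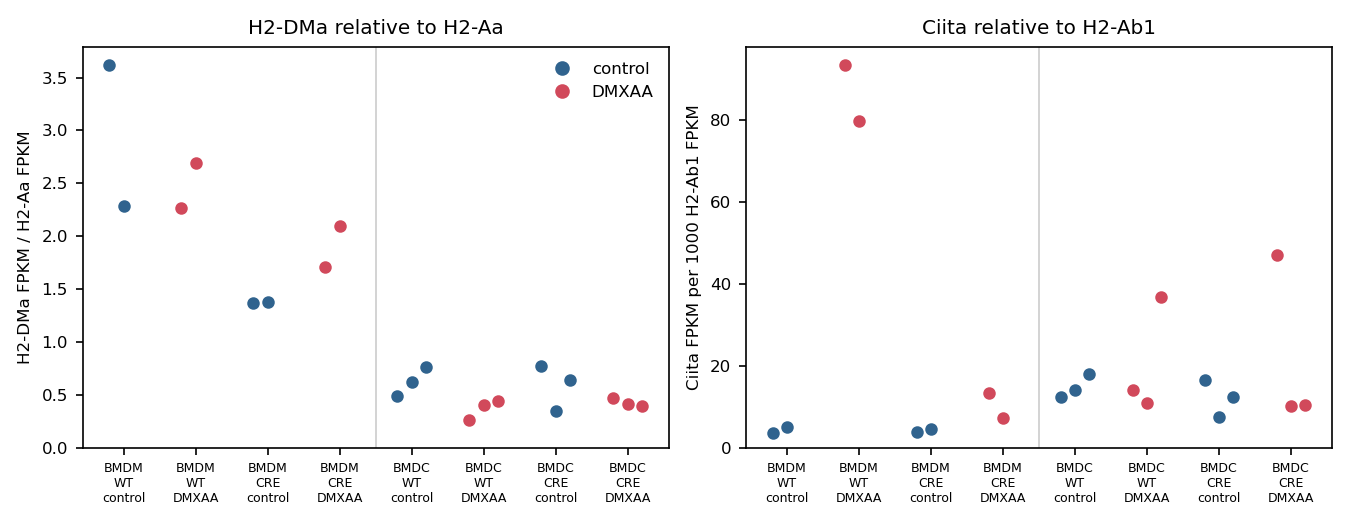
Ratio of H2-DMa to H2-Aa FPKM (left) and Ciita FPKM per 1000 FPKM of H2-Ab1 (right), 1 dot per library, for BMDM libraries numbered 1 and 2 and all BMDC libraries. The left ratio runs from 1.37 to 3.62 in BMDM libraries and from 0.266 to 0.773 in BMDC libraries, and the right one is 93.5 and 79.8 in WT-labelled BMDMs with DMXAA against at most 47.0 elsewhere.

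The cell type by DMXAA term compared the WT-labelled responses directly. It was called for Ciita (-5.17 ± 1.16, adjusted p = 0.0261), 1 of 9 members beside 2.61% of genes, and H2-Oa followed at -3.82 ± 1.03 (adjusted p = 0.0647). H2-Oa passed the filter of this fit only through BMDC libraries, where it was high, and had 0 and 2 counts in the WT-labelled control BMDMs. With the replicate block within genotype 5 were called, Ciita, H2-Oa, H2-Ab1, H2-DMa and H2-DMb1, each with the lower change in BMDCs, where 11% of genes were. The Ciita call was lost on leaving out any 1 of 4 libraries, BMDC control number 1, either BMDM control library or BMDM DMXAA number 1 (adjusted p from 0.051 to 0.128). With the libraries numbered 3 added, 0 members and 0.0% of genes were called, with 2 members and 372 genes at an unadjusted p under 0.05.

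No difference between the libraries labelled CRE and WT was detectable for class II genes in BMDCs, in which the closest libraries cross these labels. In edgeR 0 of 9 members and 0.0% of genes were called between CRE- and WT-labelled libraries in control, with 0 members and 99 genes at an unadjusted p under 0.05. With DMXAA 0 members and 0.0% of genes were called (0 and 108 at an unadjusted p), and for the genotype by DMXAA term 0 members and 0.0% (0 and 60). DESeq2 called 0 members in each. The estimates were imprecise, at -0.64 ± 0.55 for H2-Ab1 and -0.76 ± 0.65 for Ciita in control. CRE number 2 was the lowest control library for Ciita (0.856 FPKM), H2-DMa (48.0), H2-DMb1 (47.5) and H2-Ab1 (113.3) beside its raised neutrophil markers. Both CRE-labelled libraries numbered 2 also held less of the dendritic cell markers (1040 and 1362 FPKM against 1645 to 2250 in the other 10) and of the macrophage markers (1340 and 1556 against 4463 to 6299), and the part of these cells was not tested. The count of members called was also 0 without both libraries.

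The 9 genes did not move as 1 block across BMDC libraries. Over these 12 libraries Pearson's r of log2(FPKM + 1) was 0.97 to 0.99 among H2-Aa, H2-Ab1 and H2-Eb1 and 0.99 between H2-DMa and H2-DMb1, but 0.74 to 0.88 between the 2 sets. Cd74 had r of 0.82 to 0.91 with the antigen-binding chains and 0.51 to 0.53 with the H2-DM chains. Ciita correlated with H2-Ab1 at 0.64, and H2-Oa at -0.12. The points share cultures and treatments, so the values describe these libraries alone.

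Over the 20 libraries without BMDM number 3, the genes outside the lists most like H2-Ab1, among 5725 with at least 10 FPKM in 3 libraries, were Napsa (Pearson's r 0.99), Nov (0.98), Lcn2 (0.98), Ear2 (0.98) and Retnla (0.98). Each was higher in BMDCs than in those BMDMs, such as Retnla at 101.5 to 714.6 FPKM against 0.0, so the order reflects the cell types as well as the libraries within them. Within the 12 BMDC libraries their r with H2-Ab1 was 0.75 to 0.92. H2-Aa (0.99) was the most alike member.

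Of 35 further pathway symbols, 30 were found and 28 tested in BMDCs. DMXAA raised 10 and lowered 1 in WT-labelled BMDCs and raised 8 and lowered 2 in CRE-labelled ones, and in BMDMs, with 26 tested, raised 8 and lowered 4 in WT-labelled and raised 3 and lowered 0 in CRE-labelled ones. The shares of all genes called in these 4 comparisons were 32.2%, 25.4%, 39.2% and 10%, so the counts are read as no result about the pathway. Among the 9 listed regulators of Ciita, 7 rose and 1 fell in WT-labelled and 5 rose and 1 fell in CRE-labelled BMDCs, and of the 8 tested in BMDMs 5 rose and 1 fell in WT-labelled and 2 rose and 0 fell in CRE-labelled ones. Irf1, a transcription factor of the interferon response, rose in each of the 4 comparisons. Irf1 rose by 4.37 ± 0.30 (WT) and 4.05 ± 0.30 (CRE) log2 units in BMDCs and by 4.77 ± 0.16 and 2.53 ± 0.15 in BMDMs. Ifngr1, a chain of the interferon gamma receptor, changed by -1.22 ± 0.19 in WT- and -0.98 ± 0.19 in CRE-labelled BMDCs and by -0.91 ± 0.29 in WT-labelled BMDMs.

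Of the 7 promoter factors 1 rose and 0 fell in WT-labelled BMDCs, 1 rose and 1 fell in CRE-labelled BMDCs, 1 rose and 2 fell in WT-labelled BMDMs and 0 were called in CRE-labelled BMDMs, beside the same shares of all genes. Rfx5, the X box factor, named here after its values were seen, rose by 1.76 ± 0.41, 1.58 ± 0.41 and 2.56 ± 0.30 in the first 3. Its partners went the other way where called, Rfxap at -1.23 ± 0.19 in WT-labelled BMDMs and Rfxank at -0.86 ± 0.22 in CRE-labelled BMDCs. The genotype by DMXAA term in BMDMs was called for Irf1 (-2.25 ± 0.20, adjusted p = 0.0105). This was 1 of 26 pathway genes, beside 3.66% of all genes, so the count is read as no result about the pathway. Between treated BMDMs, CRE-labelled libraries held 44.0 FPKM of Irf1 on average against 195.4, and 1.48 FPKM of Rfx5 against 6.02.

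In the 4 libraries numbered 3, H2-Aa, H2-Ab1, H2-Eb1 and H2-Oa had 0 counts, Ciita 0 to 4 and Ctss 0 to 13. Cd74, however, was at 9.82 FPKM in control and 35.3 with DMXAA in the WT-labelled pair and at 5.86 and 28.2 in the CRE-labelled pair, 3.59 and 4.81 times as high. H2-DMa went from 2.33 to 3.89 and from 1.84 to 3.09. With 1 library a group these are values without a test.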

How the data were processed

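PolyA RNA from 24 cultures of mouse BMDMs and BMDCs was sequenced. Per the submitters' processing notes, the authors used CASAVA 1.8, fastp, HISAT2 2.0.5, featureCounts 1.5.0-p3 and DESeq2 1.20.0 with GRCm38 (mm10). The authors deposited raw counts and FPKM per gene and library. Columns with the authors' group means, fold changes and p-values were not used.

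The 9 members and all lists were chosen with earlier results of these data known. Groups follow the labels, and the BMDM libraries numbered 3 were kept apart. Counts were tested with edgeR 4.0.16 (quasi-likelihood, TMM, R 4.3.3) over all genes with at least 1 FPKM in 3 libraries (BMDC) or 2 (fits with BMDMs), two-sided, with Benjamini-Hochberg adjustment over all genes tested and calls at an adjusted p of 0.05. The 12 BMDC, 8 BMDM or 20 joint libraries shared 1 fit each. Other named genes were the 2 called pathway genes of largest change in each direction per response, paralogs, and the 5 genes most like H2-Ab1. One gene that this rule names is not reported here. The code was tested on simulated data.

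BMDC libraries of the same number deviated together between control and DMXAA within a genotype (correlations of 0.417 to 0.692). That is a hint from the data and is not stated in the labels. The BMDM values, 0.765 to 0.943, include the libraries numbered 3, which differ from numbers 1 and 2 in cell markers. They therefore cannot show whether numbers 1 and 2 are pairs. Fits with a replicate block within genotype are given where they change a call. BMDC numbers did not pair the genotypes (-0.514 to -0.129). The BMDM values across genotypes (0.764 to 0.949) also include the libraries numbered 3 and have the same limit. The block across genotypes is given where it changes a call. Alternatives used DESeq2 1.42.0, limma 3.58.1 on log2(FPKM + 1) and log2(FPKM + 0.1), other filters, thresholds and scaling, other sets of libraries and leaving out each library. Intervals for ratios of low counts are exact conditional ones at 95%. Python 3.11.15, pandas 2.3.3, scipy 1.17.1 and matplotlib 3.10.9 served for the rest.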

Additional observations from a re-analysis of the deposited data

Results flagged for a closer look

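The response of Ciita to DMXAA was called different between WT- and CRE-labelled BMDMs, with a genotype by DMXAA term of -4.56 log2 units (SE 0.64, edgeR adjusted p = 0.0218). Its response also differed between cell types in WT-labelled libraries, with a cell type by DMXAA term of -5.17 (SE 1.16, adjusted p = 0.0261). In the BMDM fit Ciita passed the low-value filter only through the WT-labelled DMXAA libraries, where it was high, so the first call is on a gene that entered through the contrast itself. Both rest on control BMDM libraries with 3 and 7 counts, and the adjusted p over the alternatives ran from 3.12e-06 to 0.386 for the first and from 3.02e-24 to 1.0 for the second.

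Outside the comparisons, the BMDM libraries numbered 3, which lacked leukocyte markers, held Cd74 at 35.3 FPKM (WT-labelled, DMXAA) and 28.2 FPKM (CRE-labelled, DMXAA), against 9.82 and 5.86 in their control libraries, while H2-Aa, H2-Ab1 and H2-Eb1 had 0 counts. There is 1 library a group.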

How the results depend on the processing

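The number of class II members called in WT-labelled BMDMs with DMXAA, 6, became 2 at a threshold of 0.01, 2 with DESeq2 at the study's threshold, 1 with the compared groups only, and 0 with all 12 BMDM libraries, with or without the replicate block (4 to 6 leaving out 1 library). In CRE-labelled BMDMs 0 became 4 with the compared groups only. Between genotypes in control BMDMs 0 became 4 without the low-value filter, 5 with DESeq2, 4 at the study's threshold and 1 with limma on log2(FPKM + 1) (0 to 3 leaving out 1, with 3 without WT control number 1). With DMXAA 1 became 2 without the filter, 0 at a filter of 5 FPKM, 2 with limma on log2(FPKM + 1), 0 with the spread estimated from WT-labelled libraries alone, 2 with the replicate block, and 0 with all 12 BMDM libraries, with or without the block (0 to 1 leaving out 1, with 0 without CRE DMXAA number 2).

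For genotype by DMXAA in BMDMs 1 became 0 at 0.01, 2 with median of ratios scaling, 3 without the filter, 4 with DESeq2 at either threshold, 2 with limma on log2(FPKM + 1), 0 with the spread estimated from WT-labelled libraries alone, 2 with the replicate block, 4 with the block within genotype, and 0 with all 12 BMDM libraries, with or without the block. Leaving out 1 library gave 0 to 4, with 0 without any CRE library or WT DMXAA number 1, and 2 and 4 without WT control numbers 1 and 2. In BMDCs the replicate block within genotype gave 3 in WT- and 1 in CRE-labelled libraries in place of 0 (CRE 0 to 1 leaving out 1, with 1 without CRE DMXAA number 1). BMDCs against BMDMs gave 4 (control) and 2 (DMXAA) in place of 8 with all 12 BMDM libraries (8 and 7 to 8 leaving out 1, where Ciita was lost without either WT BMDM DMXAA library).

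For cell type by DMXAA 1 became 0 at 0.01, 3 without the filter, 2 at 5 FPKM, 2 with DESeq2 at either threshold, 0 with limma on log2(FPKM + 1), 5 with the block within genotype, and 0 with all 12 BMDM libraries, with or without the block (0 to 1 leaving out 1). The causes were not tested. In no alternative did a call change direction, and over single genes 1939 results kept their side of the threshold, 68 gained and 65 lost a call. The fit with all 12 BMDM libraries and the replicate block, and that without both CRE BMDC libraries numbered 2 (0 members called in each BMDC comparison), were chosen after seeing the data. A block within genotype was not run for comparisons between genotypes or cell types, in which it cannot be separated from the contrast. With 2 BMDM libraries a group, and at most 10 counts of Ciita and 2 of H2-Oa summed over the WT-labelled control BMDMs, the size of these 2 changes is imprecise.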
